A study of Mus musculus with 4 samples.

Results

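The chemokine receptors and chemokines of myeloid cells were examined in leukemia-initiating cells (LICs) of murine acute myeloid leukemia: 10 genes, chosen by name, of the 27179 genes in the deposited expression table. The 5 receptors were Cxcr4, Cxcr2, Ccr1, Ccr2 and Cx3cr1, and the 5 ligands were Ccl3, Ccl4, Ccl6, Ccl9 and Cxcl2. RNA-sequencing had been done on 4 libraries of C57BL/6 bone marrow cells, 2 labelled wild type (WT) and 2 labelled CD274-null, with a labelled age of 6 weeks, to find genes that differ when leukemia cells lack CD274 (PD-L1), the ligand of the immune checkpoint receptor PD-1. Per the study's methods, all leukemias were made by retroviral MLL-AF9, a fusion oncogene, in Lin- fetal liver cells that were transplanted into lethally irradiated C57BL/6 mice, and LICs were sorted as Mac-1+/c-Kit+ cells. The labels state that the sequenced RNA came from cells sorted by flow cytometry, whereas the RNA-sequencing methods speak of RNA from tissue, so the purity of the input is uncertain. The recipients were ordinary C57BL/6 mice in either group, so host cells passing the gate would carry Cd274. The sources used here do not say whether the 2 libraries of a group came from separate leukemias or mice, nor which transplantation round was used, so p-values measure only the spread between these libraries.

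Chemokines are small secreted proteins that guide leukocytes, and their receptors are membrane proteins that signal through Gi proteins. Cxcr4 holds hematopoietic and leukemic cells in the marrow by binding stromal Cxcl12, Cxcr2 draws mature neutrophils out of it through ligands such as Cxcl2, and Ccr2 does the same for monocytes through Ccl2. Cx3cr1, the receptor of Cx3cl1, marks patrolling monocytes and their progenitors. Ccr1 is a receptor of Ccl3, Ccl6 and Ccl9, and Ccl3 and Ccl4 are inflammatory chemokines, so the set holds both the senders and the receivers of several signals.

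The positions are from RefSeq (GRCm38.p6). Cx3cr1 (chr9:120048683-120068296), Ccr1 (chr9:123962126-123968692) and Ccr2 (chr9:124101918-124109140) are on chromosome 9, and Cxcr2 (chr1:74153994-74161246) and Cxcr4 (chr1:128588199-128592299) on chromosome 1. Ccl9 (chr11:83572917-83578636), Ccl6 (chr11:83587886-83593087), Ccl3 (chr11:83647843-83649378) and Ccl4 (chr11:83648624-83664683) are neighbours on chromosome 11, and Cxcl2 (chr5:90903899-90905938) is on chromosome 5. RefSeq promoters were matched for 9 of the 10 genes, all but Ccl4. The 130 bases before the start site are shown for Ccr1, the gene called below, for Ccl3, which varied most between libraries among the ligands matched, and for Cxcl2, which varied least. The Ccr1 window is chr9:123968693-123968822 on the minus strand, the Ccl3 window chr11:83649379-83649508 on the minus strand and the Cxcl2 window chr5:90903769-90903898 on the plus strand, each read 5′ to 3′ with motif matches in capitals.
Ccr1: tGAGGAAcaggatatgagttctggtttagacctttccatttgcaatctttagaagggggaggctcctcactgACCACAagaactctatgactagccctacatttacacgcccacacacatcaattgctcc
Ccl3: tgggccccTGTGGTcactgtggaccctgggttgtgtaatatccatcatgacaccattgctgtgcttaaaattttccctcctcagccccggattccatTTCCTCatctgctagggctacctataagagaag
Cxcl2: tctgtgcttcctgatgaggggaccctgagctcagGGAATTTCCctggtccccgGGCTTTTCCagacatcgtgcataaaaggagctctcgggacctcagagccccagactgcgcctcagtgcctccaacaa

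The motifs were searched on both strands in the 250 bases before the start site, as short letter strings for factors used by myeloid cells. They were GAGGAA (PU.1), TGTGGT (RUNX), GGNNTTTCC (kappaB), TGANTCA (AP-1) and TTNNGCAA (C/EBP). Ccr1 and Ccl3 each held 1 PU.1 and 1 RUNX string, which 23.3% and 14.0% of 32851 promoters hold in the same length. The PU.1 string of Ccr1 began 129 bases before the start site and its RUNX string 58 bases before it. Cxcl2 held the kappaB string at 96 and at 77 bases before its start site, and Ccl9 held it at 35 bases, against 4.93% of all promoters. Ccl9 also held the AP-1 string (6.75% of promoters), Cxcr2 the PU.1 string and Cx3cr1 the RUNX string. None of the 9 held the C/EBP string (9.56% of promoters), and Cxcr4, Ccr2 and Ccl6 held none of the 5. Such matches describe letters and not binding.

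Expression was given as FPKM, which scales the fragments of a gene by its transcript length and by the size of the library, so that levels can be compared between genes. Whole reads recovered from the FPKM values, in lowest terms for each gene, summed to 8452662 to 11048767 per library. The factor left out can differ between genes, so these sums are not exact read totals. Itgam, the gene of Mac-1, had 100.2 to 174 FPKM and Kit 6.59 to 19.5 FPKM, lowest in WT replicate 1. Cd274 itself had 2.80 and 0.945 FPKM in the libraries labelled WT and 1.43 and 2.29 FPKM in those labelled CD274-null, on 35 to 118 reads. Its total level thus did not separate the labels, and the deleted part of the gene is not given in the sources used here. Every direction below therefore rests on the labels.

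All 10 genes were expressed at a mean of at least 0.5 FPKM, the minimum for testing. Cxcr4 was the highest of the 10 in each of the 4 libraries, with 131 to 290.2 FPKM, and its mean exceeded that of 97.7% of the 13230 tested genes. Ccl3 came next by mean, with 33.9 to 226 FPKM. Ccl9 (16.2 to 56.5 FPKM), Cxcl2 (31.6 to 39.3 FPKM) and Ccl6 (15.9 to 39.4 FPKM) followed, with ranges that overlapped, so their order does not exceed their spread. Ccl4 (3.41 to 57.2 FPKM), Ccr1 (7.77 to 27.7 FPKM) and Ccr2 (10.9 to 19.6 FPKM) overlapped as well, and so did the lowest, Cxcr2 (1.03 to 19.7 FPKM) and Cx3cr1 (0.765 to 10.3 FPKM).

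**Figure D1:**
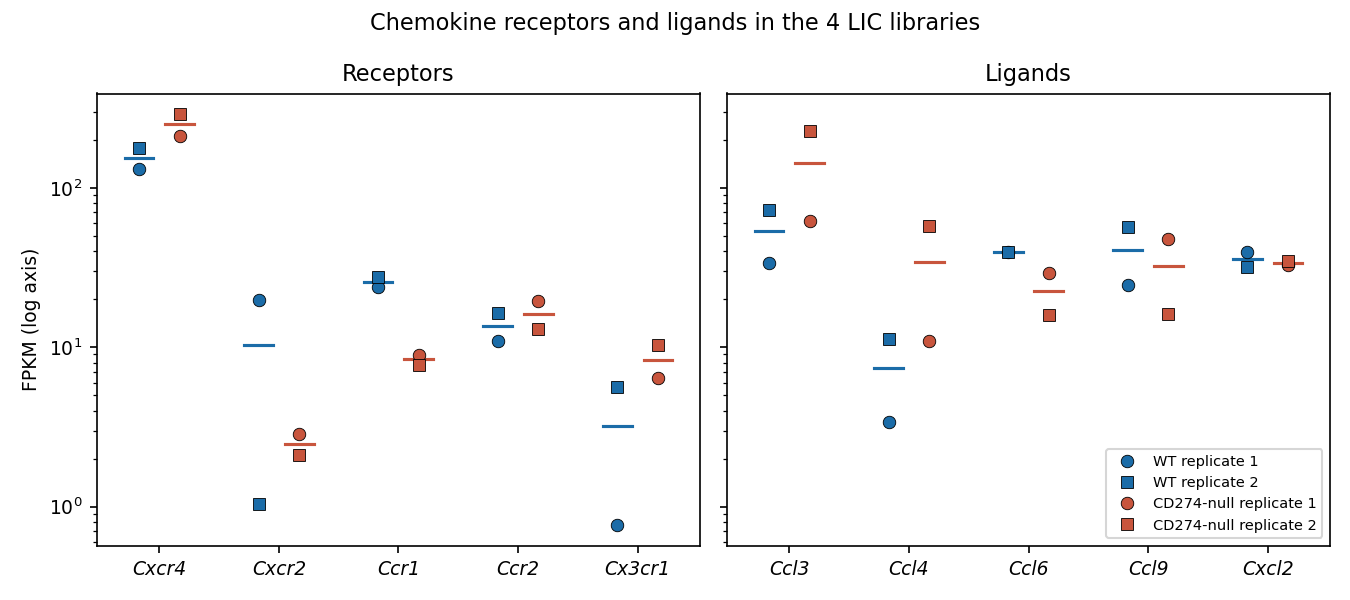
FPKM (log axis) of the 5 receptors and 5 ligands in each library, circles for replicate 1 and squares for replicate 2, with a line at each group mean (n = 2). Cxcr4 sits highest in every library, Ccr1 is lower in both CD274-null libraries, and Cxcl2 lies between 31.6 and 39.3 FPKM throughout.

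Of the 10 genes, 1 passed the study's thresholds for candidate genes, a fold change above 1.5 together with p under 0.01 before adjustment: Ccr1, which was lower in the libraries labelled CD274-null. Over all tested genes, limma on log2(FPKM + 0.5) called 480, or 3.63%, and 1.24% in the lower direction. With an unadjusted p under 0.05 stood Ccr1, Cxcr4 and Ccl6, 3 of 10, beside 13.7% of all tested genes. None of the 10 reached a Benjamini-Hochberg adjusted p under 0.05 by limma, which 10 of all tested genes did. The CD274-null values lay wholly on one side of the WT values for Cxcr4, Ccr1, Cx3cr1 and Ccl6, which is 40.0% of the 10 genes against 47.3% of all tested genes. The changes had no common direction, with 5 estimates above and 5 below 0 and a median log2 fold change of 0.09 (0.01 over all tested genes). The median absolute log2 fold change was 0.88 beside 0.33 over all tested genes, a difference that was not tested, and the estimates of Cxcr2, Cx3cr1, Ccl3 and Ccl4 had wide errors (SE 0.64 to 1.10). The smallest p that an exact two-sided permutation of 2 against 2 libraries can give is 0.333, so single genes were tested only within the fit over all genes.

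Ccr1, a receptor of inflammatory CC chemokines, had 23.7 and 27.7 FPKM in the WT libraries and 8.99 and 7.77 FPKM in the CD274-null libraries. Both CD274-null values were far below both WT values, and the libraries of a group differed by only 1.17-fold and 1.16-fold. The mean fell from 25.7 ± 2.82 to 8.38 ± 0.861 FPKM (SD, n = 2 per group), 32.6% of WT. By limma the log2 fold change was -1.56 (SE 0.24, 95% interval -2.14 to -0.98, unadjusted p 0.000525, adjusted p 0.157). It rested on 777 and 799 reads against 225 and 219 reads. No 50-base stretch of its transcript was found in another gene. The fold change kept its size without CD274-null replicate 2 (-1.46), but the call was lost there (unadjusted p 0.0121). In bulk samples, fewer cells of an expressing type and less RNA per cell cannot be told apart.

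The summed markers of 4 of 11 lists also separated the groups, some lower and some higher in the CD274-null libraries, where 47.3% of all tested genes do so singly. The 10 macrophage markers summed to 173 and 156 FPKM in the WT libraries and 109.5 and 118 FPKM in the CD274-null libraries, with Vcam1 the 1 of 7 tested that was called, lower. Without Vcam1 they summed to 55.8 and 63.5 FPKM in WT against 55.8 and 57.8 FPKM in CD274-null libraries. The macrophage genes C1qa, C1qb and C1qc stayed at or below 3.91 FPKM. The 10 B and plasma cell markers summed to 31.0 and 59.3 FPKM in WT against 313 and 402 FPKM in CD274-null libraries, with Igkc, Ighm and Jchain called, while Ms4a1 was at most 0.0976 FPKM. The 11 T and NK cell markers summed to 33.2 and 13.4 FPKM against 71.8 and 88.0 FPKM, nearly all of it Nkg7, which was called higher, with Cd3e at most 0.157 FPKM. The 5 summed plasmacytoid dendritic cell markers were at 38.3 and 40.5 FPKM against 47.6 and 73.2 FPKM, mostly Bst2 (36.4 to 48.6 FPKM), which was not called, with Tcf4 called higher and Siglech at most 0.142 FPKM. The sums for the other lists overlapped between the groups, among them the sort gate genes (169.6 to 279 FPKM), erythroid (0.589 to 55.7 FPKM) and megakaryocyte markers (5.07 to 15.3 FPKM). The part of these markers in the differences of Ccr1, Cxcr4, Cx3cr1 and Ccl6 was not tested.

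Cxcr4, the receptor that retains cells in the marrow, had 131 and 177 FPKM in the WT libraries and 211 and 290.2 FPKM in the CD274-null libraries. Both CD274-null values were above both WT values, and the step from the upper WT to the lower CD274-null library was smaller than the gap within either pair. The means were 154 ± 32.5 and 250.4 ± 56.3 FPKM (SD, n = 2 per group), a ratio of 1.63. The log2 fold change by limma was 0.70 (SE 0.27, 95% interval 0.04 to 1.36, unadjusted p 0.0405, adjusted p 0.349), and it did not pass the test. Counting error was small here, at 1.38% to 1.91% of each value, on 2739 to 5242 reads.

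The balance of Cxcr4 and Ccr1 differed between the labelled groups, which follows from their estimates in opposite directions. Cxcr4 was 5.50 and 6.37 times Ccr1 in the WT libraries and 23.4 and 37.4 times Ccr1 in the CD274-null libraries. Of the summed FPKM of the 5 receptors, Cxcr4 made up 70.3% and 77.7% in WT against 84.8% and 89.8% in CD274-null libraries. Ccr1 made up 12.8% and 12.2% in WT against 3.62% and 2.40% in CD274-null libraries. The shares of Cxcr2 and Ccr2 overlapped between the groups, and those of Cx3cr1 did not (0.412% and 2.49% in WT against 2.56% and 3.18%). All these shares repeat the levels of the same genes and were not tested separately. The receptor sums were 186 and 227 FPKM in WT and 248 and 323 FPKM in CD274-null libraries.

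**Figure D2:**
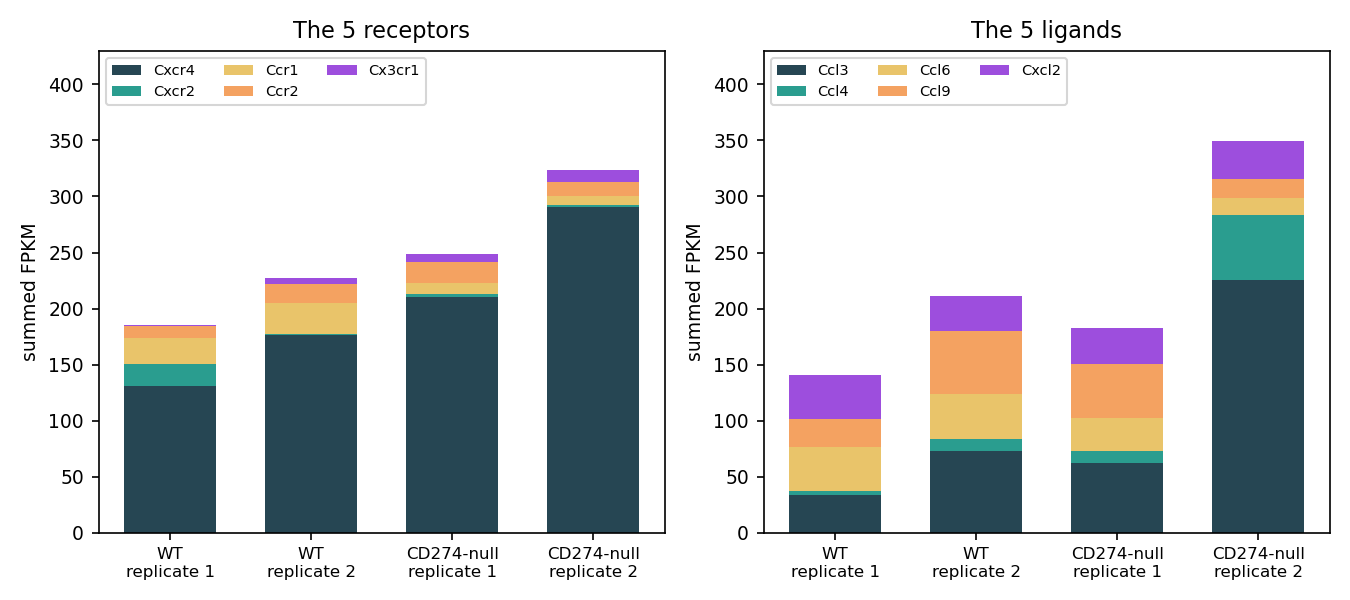
Stacked bars of the FPKM of the 5 receptors and the 5 ligands in each library, from 0. Cxcr4 is the bulk of every receptor bar, and Ccl3 is 64.6% of the ligand bar of CD274-null replicate 2 but 24.1% to 34.4% of the other 3.

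Cxcr2, the receptor of mature neutrophils, had 19.7 and 1.03 FPKM in the WT libraries and 2.86 and 2.11 FPKM in the CD274-null libraries. WT replicate 1 was high and the other 3 libraries were low, so that the groups overlapped. The WT libraries differed 19.1-fold, a wider gap than in 99.7% of tested genes, and counting error does not span it. The 32 reads of WT replicate 2 allow 0.706 to 1.46 FPKM and the 694 reads of WT replicate 1 allow 18.3 to 21.2 FPKM (exact 95% Poisson intervals, which cover counting error only). The log2 fold change by limma was -0.91 (SE 1.10, 95% interval -3.58 to 1.76, adjusted p 0.743). It was 0.95 without WT replicate 1, and without WT replicate 2 it was -2.77 and passed the thresholds for a candidate (unadjusted p 0.000508), so the WT library left in decides its sign. Of the 50-base windows of its transcript, 6.77% also occur in other genes, none of them of the chemokine family.

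The neutrophil markers other than Cxcr2, Mmp8 and Mmp9 summed to 43449 and 8778 FPKM in the WT libraries and to 18367 and 31449 FPKM in the CD274-null libraries. The WT libraries thus stood highest and lowest for this list, as they did for Cxcr2, but the CD274-null libraries combined low Cxcr2 with intermediate sums. CD274-null replicate 2 exceeded WT replicate 1 for Camp (5918 against 5330 FPKM), Ltf (216 against 109 FPKM), Ly6g (19.1 against 4.27 FPKM) and Csf3r (81.6 against 69.4 FPKM) at a Cxcr2 level of 2.11 FPKM. WT replicate 1 had the most S100a8 (14524 FPKM), S100a9 (16802 FPKM) and Ngp (5231 FPKM). None of the 9 summed markers was called, with Ly6g alone at an unadjusted p under 0.05. Their part in the level of Cxcr2 was not tested.

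**Figure D3:**
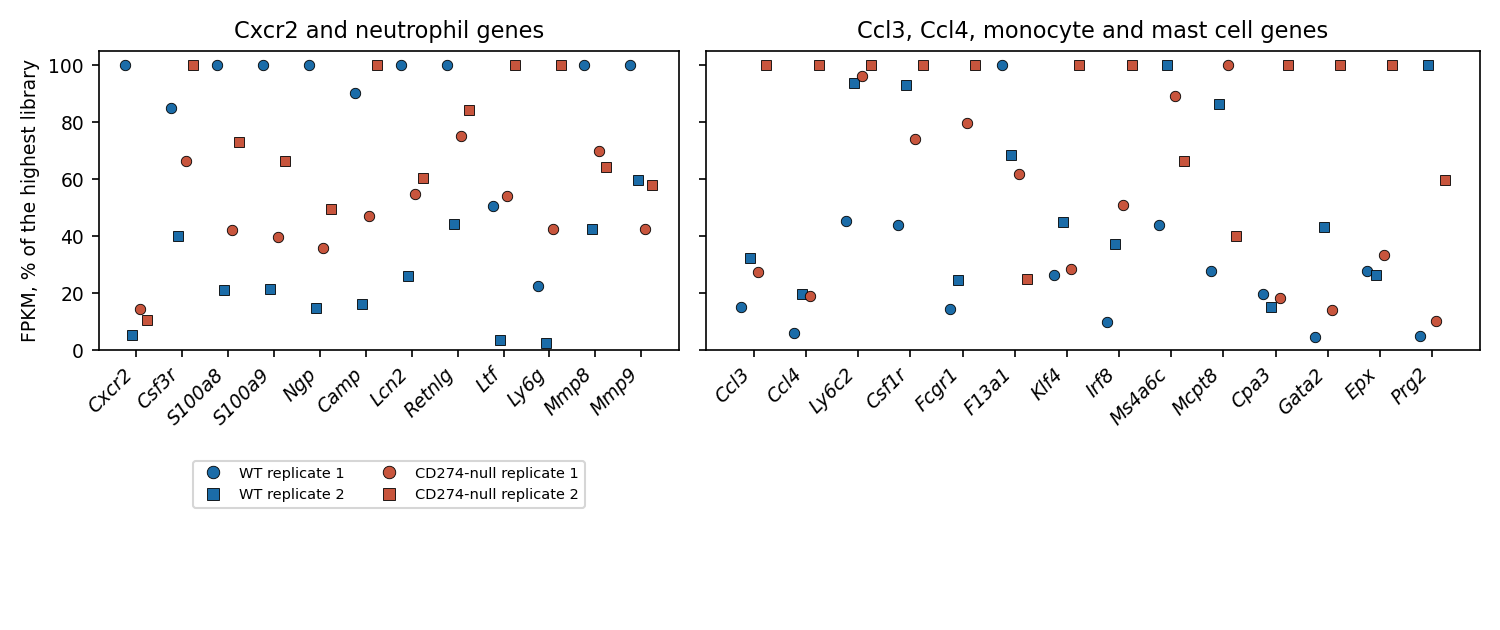
FPKM of each gene as a percentage of its highest library, for Cxcr2 with the neutrophil markers and for Ccl3 and Ccl4 with markers of monocytes and of basophils, mast cells and eosinophils. Cxcr2 is at 5.24% to 14.5% of WT replicate 1 in the other libraries, whereas the highest library of the neutrophil markers is either WT replicate 1 or CD274-null replicate 2. Ccl3 and Ccl4 peak in CD274-null replicate 2, as do Klf4, Irf8, Gata2 and Cpa3, but F13a1 is lowest there (25.0%) and Ms4a6c, Mcpt8 and Prg2 peak in other libraries.

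Ccr2, the exit receptor of inflammatory monocytes, had 10.9 and 16.3 FPKM in the WT libraries and 19.6 and 12.9 FPKM in the CD274-null libraries. These values interleaved. By limma the log2 fold change was 0.25 (SE 0.32, 95% interval -0.53 to 1.02, adjusted p 0.764), and it was -0.03 without WT replicate 1 and -0.04 without CD274-null replicate 1. Of the 50-base windows of its longest coding transcript, 2.27% also occur in other genes.

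Cx3cr1, the fractalkine receptor, had 0.765 and 5.66 FPKM in the WT libraries and 6.37 and 10.3 FPKM in the CD274-null libraries. Both CD274-null values were above the WT values, but WT replicate 2 and CD274-null replicate 1 lay close together and WT replicate 1 stood apart with 33 reads. The log2 fold change by limma was 1.62 (SE 0.73, 95% interval -0.15 to 3.40, adjusted p 0.395), which did not pass. Without WT replicate 2 it was 2.77 and passed the thresholds for a candidate (unadjusted p 0.00117), and without WT replicate 1 it was 0.48. The ratio of Ccr2 to Cx3cr1 was 14.2 and 2.88 in the WT libraries against 3.07 and 1.26 in the CD274-null libraries. The 8 monocyte markers other than Ccr2 summed to 511, 927, 926 and 1056 FPKM (WT first), also lowest in WT replicate 1, and none of the 8 was called. Of the 8, 3 (Ly6c2, Fcgr1 and Irf8) had the libraries in the order of Cx3cr1 and 1 (F13a1) in the reverse order. Fcgr1 was at most 0.931 FPKM, and Ly6c2 differed little between the libraries other than WT replicate 1 (693, 713 and 740 FPKM). Irf8, a transcription factor of monocyte and dendritic cell progenitors, had 8.10, 30.4, 41.6 and 81.4 FPKM, and F13a1 had 97.0, 66.6, 59.9 and 24.2 FPKM. Both were singled out after their values were seen. Their part in the level of Cx3cr1 was not tested.

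Ccl3, which encodes the inflammatory chemokine MIP-1 alpha, had 33.9 and 72.7 FPKM in the WT libraries and 62.1 and 226 FPKM in the CD274-null libraries. CD274-null replicate 2 was high, and CD274-null replicate 1 lay between the WT libraries. The CD274-null pair differed 3.64-fold, more than in 98.2% of tested genes. By limma the log2 fold change was 1.25 (SE 0.64, 95% interval -0.30 to 2.79, adjusted p 0.438), and it was 0.32 without CD274-null replicate 2.

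Ccl4, which encodes the inflammatory chemokine MIP-1 beta, had 3.41 and 11.3 FPKM in the WT libraries and 11.0 and 57.2 FPKM in the CD274-null libraries. The 4 libraries stood in the same order as for Ccl3, with CD274-null replicate 2 again high by a wide margin. By limma the log2 fold change was 1.92 (SE 0.83, 95% interval -0.10 to 3.94, adjusted p 0.379), and it was 0.76 without CD274-null replicate 2. Ccl4 varied more than Ccl3, 16.8-fold against 6.66-fold from the lowest to the highest library, and the ratio of Ccl3 to Ccl4 was 9.96 and 6.43 in the WT libraries against 5.67 and 3.95 in the CD274-null libraries. Ccl4 rested on few reads, 26 in WT replicate 1 and 376 in CD274-null replicate 2, at the read factor that fits its 660-base transcript. The RefSeq model of Ccl4 overlaps the start of Ccl3 on the opposite strand, and neither the library kit nor the methods give a strand for counting, so reads of the overlap could have gone to either gene. No 50-base window of the GENCODE transcript used for either gene was found in another gene.

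CD274-null replicate 2 also had the highest level of several marker genes of other myeloid states. Gata2, a factor of mast cells, basophils and stem cells, had 1.89, 18.2, 5.93 and 42.3 FPKM in WT replicates 1 and 2 and CD274-null replicates 1 and 2, and Cpa3, the mast cell carboxypeptidase, had 8.45, 6.49, 7.86 and 43.1 FPKM. The whole list of basophil, mast cell and eosinophil markers did not peak there, with sums of 41.0, 452, 92.9 and 339 FPKM and Fcer1a listed at 0 in all 4. Of the 5 tested on this list none was called. The genes Gata2 and Cpa3 were singled out after their values were seen, and their part in the level of Ccl3 and Ccl4 was not tested.

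Ccl6, a Ccr1 ligand made by resting myeloid cells, had 39.4 and 39.3 FPKM in the WT libraries and 29.1 and 15.9 FPKM in the CD274-null libraries. Both CD274-null values were below the WT pair, which agreed more closely than all but 0.824% of tested genes, while the CD274-null pair differed 1.84-fold. The mean was 39.3 ± 0.0293 in WT and 22.5 ± 9.38 FPKM in CD274-null libraries (SD, n = 2 per group). By limma the log2 fold change was -0.86 (SE 0.32, 95% interval -1.62 to -0.09, unadjusted p 0.0337, adjusted p 0.338), which did not pass, and without CD274-null replicate 2 it was -0.43.

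Ccl9, the neighbouring gene and likewise a Ccr1 ligand, had 24.6 and 56.5 FPKM in the WT libraries and 48.0 and 16.2 FPKM in the CD274-null libraries. The groups overlapped in part, with a high and a low library in each. The log2 fold change by limma was -0.41 (SE 0.58, 95% interval -1.83 to 1.01, adjusted p 0.790), and its sign turned without WT replicate 2 (0.18) and without CD274-null replicate 2 (0.36). CD274-null replicate 2 was the lowest library for both Ccl6 and Ccl9 and the highest for Ccl3 and Ccl4, although all 4 genes belong to the same cluster on chromosome 11. The ratio of Ccl9 to Ccl6 ranged from 0.625 in WT replicate 1 to 1.65 in CD274-null replicate 1, with no order by group.

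Cxcl2, the ligand of Cxcr2, was the steadiest of the 10, with 39.3 and 31.6 FPKM in the WT libraries and 32.9 and 34.7 FPKM in the CD274-null libraries. The CD274-null pair lay inside the WT pair. By limma the log2 fold change was -0.06 (SE 0.22, 95% interval -0.59 to 0.47, adjusted p 0.921). Its sign turned with a correction for GC content (0.06). Of its 50-base windows, 3.37% also occur in Cxcl3, which had at most 0.582 FPKM. The steady level of Cxcl2 held across libraries in which its receptor gene Cxcr2 ranged 19.1-fold.

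The 5 ligands summed to 141 and 212 FPKM in the WT libraries and 183 and 349.9 FPKM in the CD274-null libraries. In WT replicate 1, Ccl6 and Cxcl2 made up the largest shares of that sum, 28.0% each. Ccl3 was the largest share of the other 3 libraries, with 34.4% in the second WT library and 33.9% and 64.6% in the CD274-null pair. Together with Ccl4 (16.4%), it left Ccl6 and Ccl9 at 4.54% and 4.64% of the sum in CD274-null replicate 2.

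**Figure D4:**
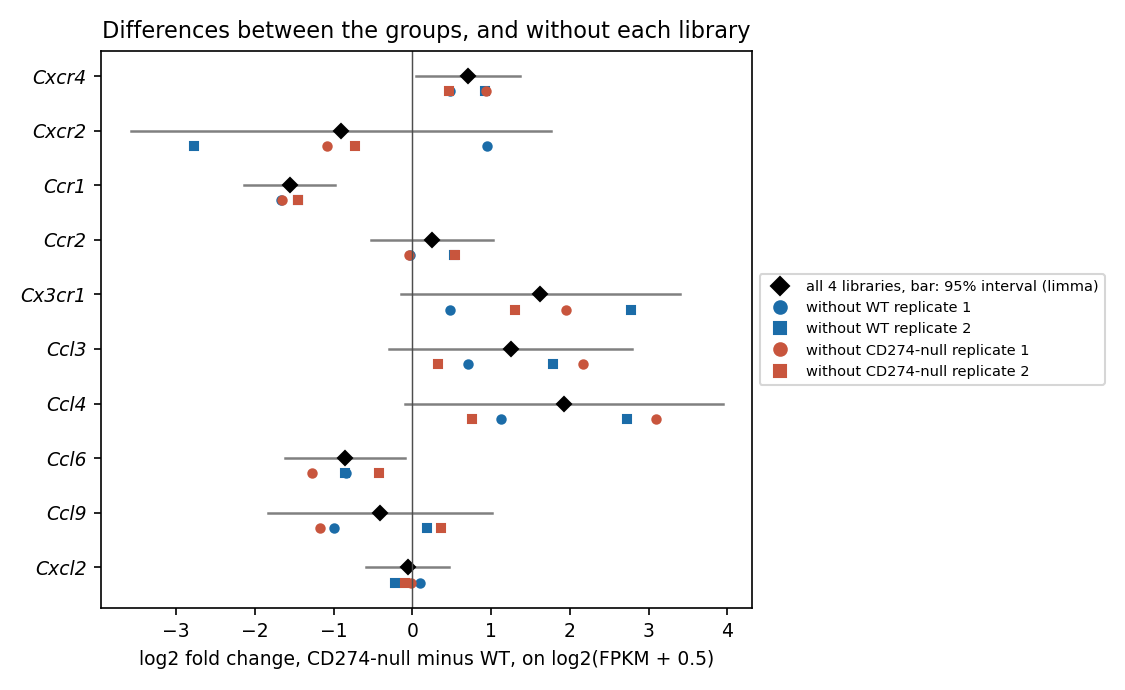
Log2 fold change (CD274-null minus WT, on log2(FPKM + 0.5)) of each gene with its 95% interval by limma, and below it the estimates without each library. The estimates for Ccr1 stay between -1.67 and -1.45, whereas those for Cxcr2, Ccr2, Ccl9 and Cxcl2 fall on both sides of 0.

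The rest of the chemokine system was described from lists of 93 further genes, of which 43 were tested and 2 were called, both higher (4.65% of those tested, near the 3.63% of all tested genes). Their median log2 fold change was -0.01, with 21 estimates above and 22 below 0. None of the 14 other chemokine receptors reached the mean for testing, and the highest single value among them was 0.692 FPKM. Of the 5 atypical receptors, 2 were tested and none was called. Ccrl2, which binds chemerin and does not signal, had 3.32 and 2.75 FPKM in WT and 5.09 and 7.42 FPKM in CD274-null libraries (log2 fold change 0.92, adjusted p 0.333 by limma), and it was named after its values were seen (unadjusted p 0.0309).

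The ligands of Cxcr4 and Cx3cr1 were near 0 in these libraries. Cxcl12, the ligand of Cxcr4, had 0.0483 and 0.0549 FPKM in WT and 0.695 and 0.252 FPKM in CD274-null libraries, on 2 to 22 reads, and was not tested. The 6 marrow stroma markers other than Cxcl12 summed to 2.65 and 15.3 FPKM in WT against 9.36 and 11.3 FPKM in CD274-null libraries, without separating the groups, with Pdgfrb (1.23, 14.2, 3.82 and 8.83 FPKM) the largest part in WT replicate 2. Lepr was at most 0.0341 FPKM, and Col1a1 (0.973, 0.793, 3.65 and 1.88 FPKM) and Col1a2 (0.420, 0.210, 1.78 and 0.547 FPKM) were higher in both CD274-null libraries than in either WT library, without being called; their part in the level of Cxcl12 was not tested. The ligand of Cx3cr1, Cx3cl1, was at most 0.187 FPKM. Ccl2, the ligand of Ccr2 and the only further ligand or receptor with a mean of at least 5 FPKM, had 4.61 and 18.0 FPKM in WT and 2.95 and 5.11 FPKM in CD274-null libraries. WT replicate 2 was high and the groups overlapped (log2 fold change -1.15, SE 0.62, adjusted p 0.460 by limma), and without WT replicate 1 Ccl2 was called lower. Of the 19 further CC ligands, Ccl2 included, 4 were tested and none was called or had an unadjusted p under 0.05. Of the 16 CXC, C and CX3C ligands, 1 was tested, Cxcl10, with 1.26, 11.9, 0.719 and 2.28 FPKM (log2 fold change -1.34, adjusted p 0.548 by limma). Like Ccl2 it was highest in WT replicate 2 and was called lower without WT replicate 1. Xcl1, a lymphocyte chemokine, was listed at 0 in both WT libraries and at 0.676 and 0.800 FPKM in the CD274-null libraries, on 3 and 4 reads, and was named after its values were seen.

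Downstream of the receptors, 28 of 30 signalling and desensitisation genes were tested, with 12 estimates above and 16 below 0. The 2 that were called encode phospholipase C beta enzymes, which Gi-coupled receptors activate through G protein beta-gamma subunits. Plcb2 had 72.3 and 77.4 FPKM in the WT libraries and 131 and 172 FPKM in the CD274-null libraries, with means of 74.9 ± 3.64 and 151 ± 28.4 FPKM (SD, n = 2 per group; SE of the log2 difference 0.23, unadjusted p 0.00397, adjusted p 0.255 by limma). Plcb3 had 5.38 and 4.99 FPKM in WT and 11.97 and 10.9 FPKM in CD274-null libraries, which gave a log2 difference of 1.07 (SE 0.26, unadjusted p 0.00578, adjusted p 0.269 by limma). Both CD274-null values were above both WT values for each gene. Plcb2 was called in none of the 4 fits without 1 library, and Plcb3 only in the fit without WT replicate 1, and the count of called genes without 1 library ranged from 0 to 8 over the lists. The Gi subunit Gnai2 (401 to 556 FPKM), the receptor kinase Grk2 (232 to 308 FPKM), the arrestin Arrb2 (119 to 176 FPKM) and the GTPase Rac2 (427 to 518 FPKM) were abundant and were not called. Of 9 proteases that cleave chemokines, 8 were tested and none was called, with Dpp4 and Adam10 at an unadjusted p under 0.05; the neutrophil elastase gene Elane had 2780 to 4673 FPKM.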

How the data were processed

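Per the labels, the authors made TruSeq v2 libraries from sorted cells (the methods speak of tissue), and their processing notes name CASAVA 1.8.2, TopHat2 2.0.12 and GRCm38. The deposited table gives 1 FPKM value per gene and library. The program and strand setting behind FPKM are not given in the sources used here. Genes were named by NCBI gene number (25275 of 27179 had a RefSeq symbol, GRCm38.p6), and 0 sample columns were left unassigned. FPKM values of a gene stood in ratios of whole reads (tolerance 0.0005 reads) for all (100%) of the 17083 genes that were above 0 in 2 or more libraries. Reads are given in lowest terms, multiplied by 2 for Ccl4 only, where that brings the implied to the annotated length.

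Groups were compared on log2(FPKM + 0.5) by lmFit and eBayes with a mean-variance trend (limma 3.58.1, R 4.3.3), with no covariate. The 13230 genes whose mean FPKM reached 0.5 entered, and p-values were adjusted over them by Benjamini-Hochberg. A gene was called at a fold change above 1.5 with an unadjusted p under 0.01, the thresholds of the study. The fit was also run on simulated reads with the same spread setting for every gene and large changes. That run does not give its error rates for these libraries. Fold changes understate changes of low genes because of the pseudocount. Named genes were the 10 members, called genes of the lists and further ligands or receptors with a mean of at least 5 FPKM, and others where the text says so or where they are markers, receptor partners or abundant signalling genes. The members and lists were chosen with earlier results of these data known. Some genes of the lists are not reported here. Alternatives were pseudocounts of 1 and 0.1, no filter, a minimum mean FPKM of 5, quantile normalization, equal medians, no trend, no moderation, voom on recovered reads, the replicate number as a block, a GC correction (loess, span 0.3) and leaving out each library. Promoters are from RefSeq, and shared windows from GENCODE transcripts, searched in Python 3.11.15.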

Additional observations from a re-analysis of the deposited data

How the results depend on the processing

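Ccr1 was called in all 12 settings that kept the 4 libraries (log2 fold change -1.62 to -1.39, adjusted p 0.117 to 0.492), and Cxcr4 kept its direction in each (0.66 to 0.80) without being called. The lowest adjusted p of any member in these settings was 0.0879 (Ccl4 with the replicate block). Leaving out each library gave 0 to 3 called members and -1.67 to -1.45 for Ccr1. Leaving out a library turned the direction of Cxcr2 (-2.77 to 0.95), Ccr2 (-0.04 to 0.54), Ccl9 (-1.18 to 0.36) and Cxcl2 (-0.22 to 0.09), and the GC correction, with or without the replicate block, that of Cxcl2 (0.06). In such fits the lone library is assumed to vary like the other group.

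Over all tested genes the 480 calls became 170 without moderation, 297 with the GC correction and replicate block and 149 to 645 without 1 library. Of the calls 65.8% were higher in CD274-null libraries, 54.6% after quantile normalization and 55.3% at equal medians. Of the lists, 1 gene in place of 2 was called without trend and without moderation (Plcb3) and with voom and with the GC correction (Plcb2), Plcb2 and Rgs2 with the replicate block and with the GC correction and block, and 0 to 8 without 1 library; without a filter it was 3, with Xcl1. With the replicate block, also with the GC correction, 3 members were called, Ccr1, Ccl3 (log2 fold change 1.25, p 0.00223) and Ccl4 (1.92, p 0.000399), and 526 genes over all without the GC correction. The replicate numbers are not stated to pair the libraries, and deviations of same-numbered libraries did not correlate (r = -0.015 across genes). With 2 libraries per group, this value cannot decide whether same-numbered libraries were prepared together. The causes of these differences were not tested. Depth limits Cxcr2, Cx3cr1 and Ccl4, with 26 to 33 reads in their lowest library, and Cxcl12, Cx3cl1 and Xcl1 of the lists.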
